A study of Homo sapiens with 24 samples.

Results

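Tumors taken 24 h after the last dose of IK-595 were compared with vehicle tumors. The comparison held 8 of the 24 tumors in the study, 4 on each side, chosen from the labels and not from any measured value. All were xenografts of the AsPC-1 line, derived from a human pancreatic ductal adenocarcinoma and grown in mice with 4 animals per group, and every group shares this 1 line. The treated animals received 3 oral doses of IK-595 at 6 mg/kg, given every other day, and the vehicle animals received 3 oral doses of 5% DMSO and 95% PEG400 on the same schedule. The vehicle tumors were collected 2 h after the last dose, so the drug and the time since dosing differ together between the groups and cannot be told apart. Treated tumors collected at 2, 4, 8 and 48 h entered the same model, and those at 8 and 48 h are set beside the 24 h tumors at the end.

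IK-595 is described by the series as a molecular glue of MEK and RAF, a small molecule that holds both kinases together in an inactive complex. In this pathway growth signals pass through RAF, MEK and ERK in turn. Active ERK switches on early transcription factors such as EGR1 and feedback genes such as the DUSP phosphatases and Sprouty proteins, which dampen the same pathway, and through MYC and the cyclins it feeds cell division, ribosome production and sugar metabolism.

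Each library held 19.68 to 20.58 M estimated counts in the vehicle group and 13.87 to 20.26 M at 24 h. AsPC-1 carcinoma markers were present in all 8 tumors, with mean EPCAM at 677 CPM (counts scaled to library size) in vehicle and 1050 CPM at 24 h and mean KRT19 at 2380 and 1920 CPM, while KRT7 was low in both groups, at 9.23 and 2.46 CPM. Several tumors stood apart from their group. Transcripts encoded by mitochondrial DNA made up 27.0% of the counts of 24 h tumor 1, against 10.3% to 12.5% in the other 24 h tumors and 6.13% to 8.77% in the vehicle tumors. Muscle, fat and red cell markers summed to 3570 CPM in 24 h tumor 4 and to 477 CPM in vehicle tumor 2, against 30.9 to 65.6 CPM in the other 6. Of the 11 tested, 1 passed: PLIN1, a lipid droplet gene, at 2.22 (SE 0.71, adjusted p = 0.0243), which was also the median of the 11. PLIN1 no longer passed when vehicle tumors 2, 3 or 4, or 24 h tumor 3, were left out in turn. Fibroblast and pericyte markers summed to 1370 to 2780 CPM in vehicle and 1570 to 4590 CPM at 24 h, and none of the 18 passed the test between the groups. Endothelial markers summed to 23.1 to 33.7 CPM in vehicle and 18.4 to 67.7 CPM at 24 h, and none of the 10 tested passed. Of the 16 myeloid markers, 6 were at 0 in all 8 tumors, among them TYROBP, C1QA and CSF3R, and none of the 8 tested passed. The 12 lymphocyte markers summed to at most 2.14 CPM in any of the 8 tumors. In such bulk samples, fewer cells of a type and less RNA per cell cannot be told apart. The host cell markers were read at human gene IDs, while host cells of these xenografts are mouse cells. How many mouse reads were counted there is not known, so low or 0 values do not show that a cell type was absent.

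**Figure D1:**
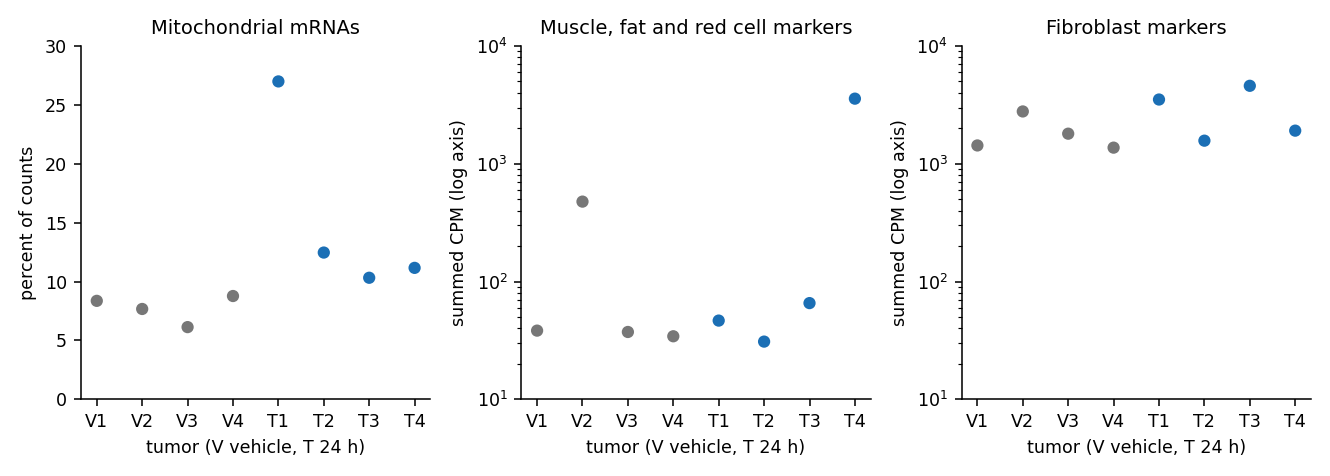
Share of counts from mitochondrially encoded mRNAs (percent, left) and summed CPM of adipose, muscle and red cell markers (middle) and of fibroblast markers (right) in each of the 4 vehicle (V, grey) and 4 treated (T, blue) tumors at 24 h, with log axes in the middle and right panels. Tumor T1 has 27.0% mitochondrial mRNA, and tumors T4 and V2 have 3570 and 477 CPM of muscle, fat and red cell markers.

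At 24 h the tumors differed from vehicle at 27.5% of the genes tested, in both directions. Many cell cycle, ribosome, glycolysis and integrin genes were lower, and many enterocyte, chemokine and antigen presentation genes were higher. By edgeR's quasi-likelihood test with Benjamini-Hochberg adjustment (adjusted p under 0.05), 2493 of 18242 genes rose, a background of 13.7%, and 2518 fell, 13.8%. A change of at least 2-fold was seen in 1209 of those that rose and 510 of those that fell, and the median log2 fold change over all genes was 0.06. Without 24 h tumor 1, 1881 genes rose and 1940 fell (10.1% and 10.4% of 18690 genes), and 69.4% of the 5011 calls were kept. Leaving out 24 h tumor 4 as well kept 37.3% of them. On TPM values, log2(TPM + 1), limma called 1398 genes higher and 2159 lower. Genes written below as having risen or fallen against vehicle also passed in all 8 fits that left out 1 of the 8 tumors, except where a lost call is named. Of the genes described below as changed, DUSP4, SPRY4, NRAS, MYC, KIF11, CKS2, KIF4A, BCL2L1, MT-CO1, BNIP3L, VEGFA, SCD, TFF1, EZR, MMP7, TIMP3 and CXCL8 lost their calls without 24 h tumors 1 and 4 together, and VEGFA lost its call on TPM values.

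**Figure D2:**
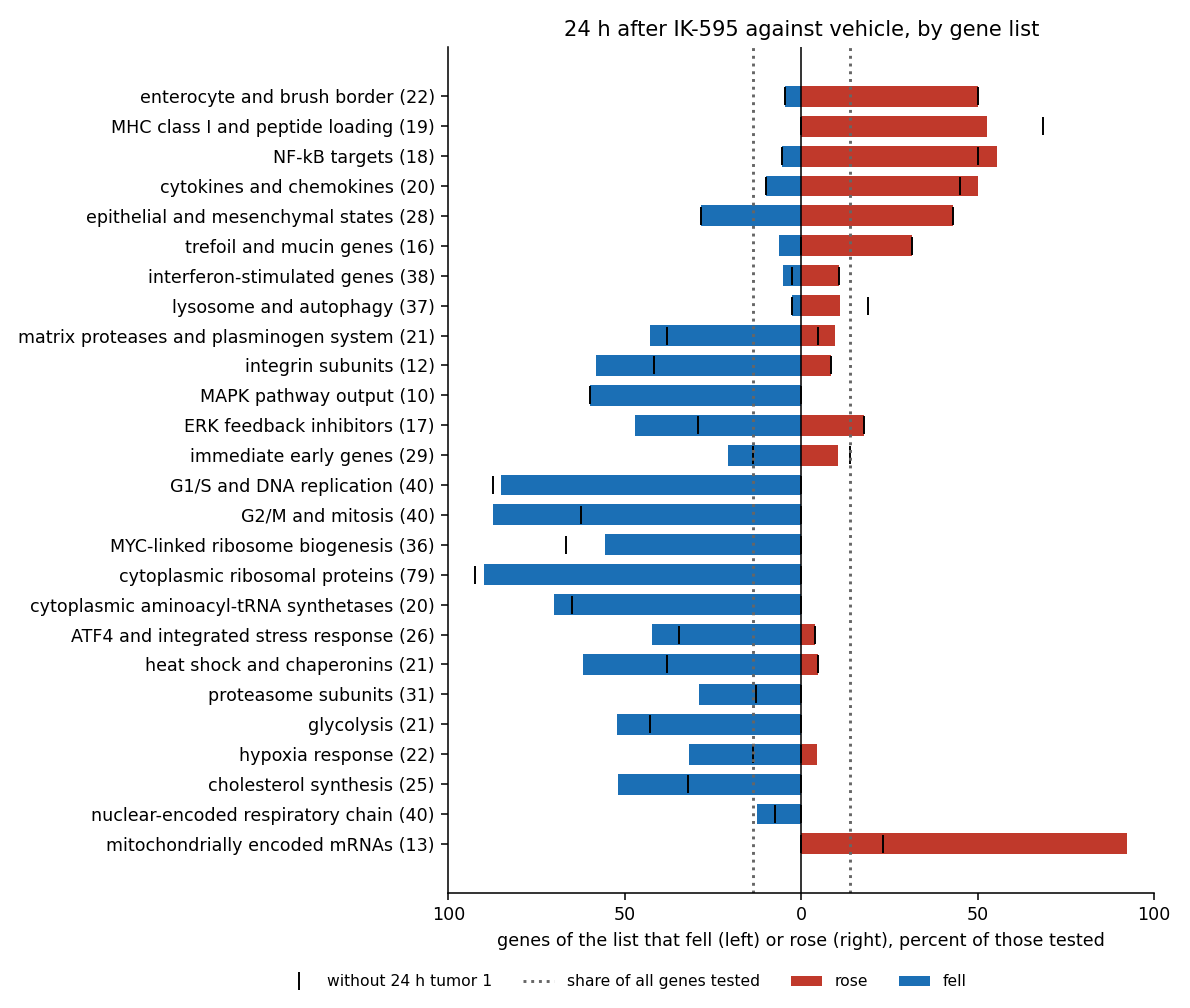
Percent of the tested genes of each list that fell (blue, left) or rose (red, right) 24 h after IK-595 against vehicle, with the number tested in brackets. Black ticks give the share without 24 h tumor 1, and dotted lines the share of all genes tested, 13.8% lower and 13.7% higher: ribosomal protein and cell cycle lists lie far to the left, brush border, chemokine and antigen presentation lists to the right, and the bar of mitochondrially encoded mRNAs shortens most without tumor 1.

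The direct transcriptional output of the MAPK pathway was still below vehicle at 24 h for some genes and not for others. Of 10 widely used output genes, 6 fell and none rose, with a median log2 fold change of -1.03, and the same number fell without 24 h tumor 1. PHLDA1, which encodes a pleckstrin-homology-like protein induced by growth factors (chromosome 12, 76025447 to 76033932 on GRCh38), stood at 294, 300, 256 and 273 CPM in the vehicle tumors and at 61.0, 65.0, 98.4 and 56.8 CPM at 24 h. Its log2 fold change was -2.0 (SE 0.22, adjusted p = 3.48e-06), and every 24 h tumor lay below every vehicle tumor. DUSP6, the cytoplasmic phosphatase that inactivates ERK (chromosome 12, 89347232 to 89353271), stood at 251, 229, 254 and 288 CPM in vehicle and 100, 83.8, 120 and 120 CPM at 24 h, a log2 fold change of -1.27 (SE 0.31, adjusted p = 0.00442). The groups did not overlap for DUSP6 either. DUSP4, a nuclear MAP kinase phosphatase, had a log2 fold change of -1.38, the ETS factor ETV5 one of -1.33 and the ephrin receptor EPHA2 one of -1.18, and all 3 passed.

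The other 4 output genes did not pass. The ETS factor ETV4 stood at 51.8, 46.5, 36.1 and 43.3 CPM in vehicle and at 54.7, 43.0, 54.7 and 42.9 CPM at 24 h, with a log2 fold change of 0.14 (SE 0.18, adjusted p = 0.605). The ranges of ETV4 overlapped, although ETV5, of the same ETS subfamily, stood lower in all 4 treated tumors. CCND1, which encodes the G1 cyclin D1, had a log2 fold change of -0.35 (SE 0.23, adjusted p = 0.266) and the feedback inhibitor SPRY2 one of -0.50 (SE 0.20, adjusted p = 0.0678). EPHA4 was at most 5.57 CPM in any of the 8 tumors and had a log2 fold change of -0.88 (SE 0.72, adjusted p = 0.382). SPRY4, the other Sprouty gene of the list, passed at an adjusted p of 0.0467 with a log2 fold change of -0.79 (SE 0.29), and its call was lost in 7 of the 8 fits that left out a tumor, all except the one without 24 h tumor 1, with adjusted p up to 0.124 without 24 h tumor 2. The groups of SPRY4 did not overlap, at 150 to 169 CPM in vehicle and 66.8 to 120 CPM at 24 h.

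**Figure D3:**
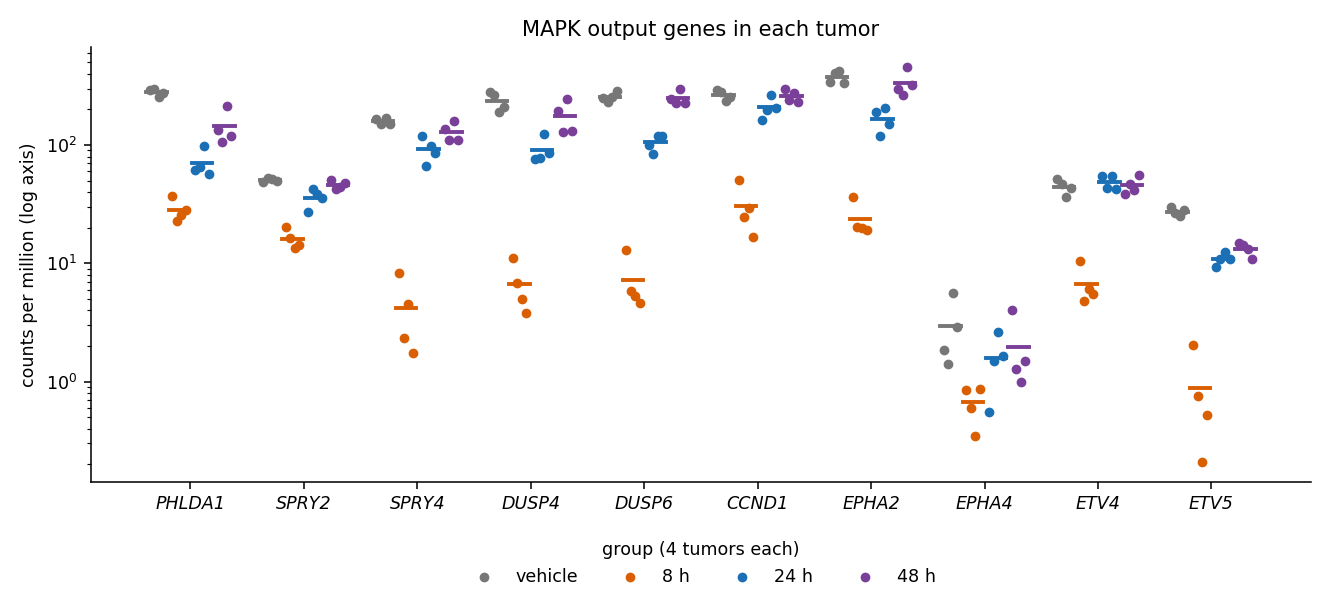
CPM (log axis) of the 10 MAPK output genes in each of 4 tumors from the vehicle, 8 h, 24 h and 48 h groups, with bars at the group means. At 24 h (blue) PHLDA1, DUSP4, DUSP6, EPHA2 and ETV5 lie between the 8 h tumors (orange) and the vehicle tumors (grey), while the ETV4 values overlap those of vehicle.

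Among genes around the pathway some fell, others did not pass and a few rose. The list of ERK feedback inhibitors also held other genes, such as DUSP8 and the cytokine gene LIF. Over all genes tested, 13.8% fell and 13.7% rose. Of the 17 tested genes of this list, 8 fell and 3 rose (median -0.63), and 5 fell when either 24 h tumor 1 or 24 h tumor 4 was left out. Among them were DUSP5, a nuclear ERK phosphatase, at -2.48 (SE 0.45, adjusted p = 3.55e-04), and ERRFI1, an inhibitor of the EGF receptor, at -1.83 (SE 0.32, adjusted p = 3.61e-04). In the opposite direction, DUSP8, a phosphatase of the JNK and p38 kinases, rose from 3.32, 2.52, 3.78 and 5.04 CPM to 8.52, 12.7, 15.3 and 10.7 CPM, a log2 fold change of 1.69 (SE 0.23, adjusted p = 2.01e-05). Of 29 immediate early genes, 6 fell and 3 rose, where 13.8% of all genes fell and 13.7% rose. The number of falls moved to 4 without 24 h tumor 1 and to 10 without vehicle tumor 1. EGR1, the zinc finger factor that serum and ERK induce within minutes, stood at 32.7, 68.8, 54.6 and 35.9 CPM in vehicle and 11.4, 4.76, 15.5 and 8.67 CPM at 24 h, a log2 fold change of -2.25 (SE 0.47, adjusted p = 0.00153). FOSB, an AP-1 subunit, fell by 2.03 (SE 0.44, adjusted p = 0.00163). The AP-1 partner FOS, looked up after its values were seen, stood at 29, 52.3, 49.8 and 41.0 CPM in vehicle and 36.1, 47.3, 51.2 and 58.3 CPM at 24 h, with overlapping ranges and a log2 fold change of 0.17 (SE 0.45, adjusted p = 0.815). The ETS factor ETV1 fell by 1.59 (SE 0.26, adjusted p = 1.36e-04) and the serum response co-factor ELK3 by 1.22 (SE 0.21, adjusted p = 2.63e-04).

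Receptor kinase and adaptor genes as a list were near the background: of 30, 5 fell and 3 rose, the same numbers as without 24 h tumor 1, with a median of -0.04. Single receptors did change. AXL, a TAM-family receptor, stood at 181, 199, 260 and 224 CPM in vehicle and 43.7, 91.3, 47.0 and 72.1 CPM at 24 h, a log2 fold change of -1.76 (SE 0.21, adjusted p = 7.36e-06). The hepatocyte growth factor receptor MET fell by 1.18 and the EGF receptor EGFR by 1.07, and for each of the 3 genes no 24 h tumor reached the lowest vehicle tumor. EPHA1 rose by 1.54 (SE 0.33, adjusted p = 0.00163), from a mean of 1.66 to 4.85 CPM. Among 26 genes of the chain from RAS to ERK with their regulators, 11 fell and 1 rose. The number that fell was 6, 5, 6 and 7 without vehicle tumors 1 to 4 in turn, 6, 7 and 6 without 24 h tumors 1, 2 and 4, and 0 without 24 h tumors 1 and 4 together. NRAS, at -0.73, kept its call in each fit without a single tumor and lost it without 24 h tumors 1 and 4 together.

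Cell cycle genes formed the lists with some of the largest shares of falls. Of 40 genes of G1/S and DNA replication, 34 fell and none rose, with a median log2 fold change of -1.21, and of 40 genes of G2/M and mitosis, 35 fell and none rose, with a median of -1.20. Without 24 h tumor 1, 35 and 25 fell, and without 24 h tumors 1 and 4, 20 and 5. MCM6, a subunit of the replicative helicase, stood at 79.8, 69.6, 44.5 and 60.9 CPM in vehicle and 18.1, 18.9, 30.6 and 16.8 CPM at 24 h, a log2 fold change of -1.59 (SE 0.29, adjusted p = 4.07e-04). PRIM1, the small primase subunit, fell by 1.52 (SE 0.28, adjusted p = 4.20e-04), and the flap endonuclease FEN1 by 1.39 (SE 0.25, adjusted p = 4.09e-04). Among mitotic genes, ANLN, an actin-binding protein of the cleavage furrow, stood at 248, 234, 166 and 196 CPM in vehicle and 32.5, 55.2, 95.9 and 72.6 CPM at 24 h, a log2 fold change of -1.72 (SE 0.35, adjusted p = 0.00134). The spindle checkpoint genes MAD2L1 and BUB3 fell by 1.62 and 0.60, and the centriole kinase PLK4 by 1.31. Vehicle tumor 3 was the lowest vehicle tumor for MCM6, PRIM1, FEN1, ANLN, MAD2L1 and PLK4, and 24 h tumor 3 was the highest 24 h tumor for MCM6, PRIM1, FEN1, ANLN and MAD2L1, so the gap between the groups was narrowest between the tumors of that number.

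The promoters of both lists were searched for short runs of letters. The lists were written from general knowledge of the cell cycle, so the choice of genes and these letters may not be independent. All listed genes with a promoter were searched, changed or not, so the matches describe the lists and not the change at 24 h. Within the 250 bases before the start of each gene (RefSeq, GRCh38.p14), E2F-type forms were searched on both strands. The forms were TTGGCGC with its variants TTCCCGC, then TTCGCGC and lastly TTGCCGC, which can overlap each other. At least 1 form was found in 10.9% of all 27305 promoters and in 16.5% of the 12135 of tested genes. They were found in 21 of 34 G1/S promoters (61.8%) and in 8 of 33 G2/M promoters (24.2%). TTTGAA, the core of the cell cycle genes homology region (CHR), was found in 13.6% of all promoters and 8.8% of those of tested genes, in 18 of 33 G2/M promoters (54.5%) and in 1 of 34 G1/S promoters (2.9%). CCAAT was found in 33.0% of all promoters and 34.5% of those of tested genes, in 25 of 33 G2/M promoters (75.8%) and in 19 of 34 G1/S promoters (55.9%), and TTTGAA and CCAAT occurred together in 16 of the 33 G2/M promoters. The nearest TTTGAA lay a median of 24.0 bases before the start. Such matches describe letters and are not shown to be bound sites. The promoters of the G1/S genes with an E2F-type form and the smallest adjusted p follow, 5′ to 3′ on the strand of the gene, from chr2:135876444-135876693 (minus strand) for MCM6, chr12:56752324-56752573 (minus strand) for PRIM1 and chr11:4094435-4094684 (plus strand) for RRM1, the large subunit of ribonucleotide reductase, with the E2F-type forms in capitals.
MCM6: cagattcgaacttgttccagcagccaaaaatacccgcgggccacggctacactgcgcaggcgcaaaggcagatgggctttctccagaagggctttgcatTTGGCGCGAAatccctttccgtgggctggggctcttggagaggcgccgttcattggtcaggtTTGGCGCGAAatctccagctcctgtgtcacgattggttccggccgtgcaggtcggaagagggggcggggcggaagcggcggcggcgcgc
PRIM1: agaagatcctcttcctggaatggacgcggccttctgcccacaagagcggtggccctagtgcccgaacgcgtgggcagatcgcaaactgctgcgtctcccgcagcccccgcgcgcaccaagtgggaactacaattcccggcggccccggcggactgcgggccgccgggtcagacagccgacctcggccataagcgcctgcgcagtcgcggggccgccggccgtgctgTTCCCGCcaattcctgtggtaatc
RRM1: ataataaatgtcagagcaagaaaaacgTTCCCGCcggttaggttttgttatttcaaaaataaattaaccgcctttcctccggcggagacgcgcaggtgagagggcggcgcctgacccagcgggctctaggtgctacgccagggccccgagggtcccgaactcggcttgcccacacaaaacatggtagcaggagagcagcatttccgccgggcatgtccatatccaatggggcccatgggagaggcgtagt
RRM1 fell by 1.27 (SE 0.25, adjusted p = 9.01e-04). MCM6 holds 4 matches in overlapping pairs, the nearest 80 bases before the start, the match of PRIM1 lies 18 bases before it and that of RRM1 217, against a median of 18 over the list.

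For the G2/M list the promoters shown are those with both TTTGAA and CCAAT, in capitals, and the smallest adjusted p. In all promoters TTTGAA and CCAAT were also searched on both strands. A match on the other strand reads TTCAAA or ATTGG in the sequences below. They come from chr10:92592880-92593129 (plus strand) for KIF11, the mitotic kinesin that separates spindle poles, chr9:89310945-89311194 (plus strand) for CKS2, a small partner of cyclin-dependent kinases, and chrX:70289854-70290103 (plus strand) for KIF4A, a chromosome-arm kinesin.
KIF11: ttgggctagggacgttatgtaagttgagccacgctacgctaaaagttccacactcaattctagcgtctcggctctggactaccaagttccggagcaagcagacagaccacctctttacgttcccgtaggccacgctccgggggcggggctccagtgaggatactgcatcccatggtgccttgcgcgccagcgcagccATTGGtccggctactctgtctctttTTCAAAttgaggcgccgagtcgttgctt
CKS2: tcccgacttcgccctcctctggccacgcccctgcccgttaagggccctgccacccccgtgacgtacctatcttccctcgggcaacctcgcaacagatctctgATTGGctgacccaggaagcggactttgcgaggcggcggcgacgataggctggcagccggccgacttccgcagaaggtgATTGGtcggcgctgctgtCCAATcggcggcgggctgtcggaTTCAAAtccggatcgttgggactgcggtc
KIF4A: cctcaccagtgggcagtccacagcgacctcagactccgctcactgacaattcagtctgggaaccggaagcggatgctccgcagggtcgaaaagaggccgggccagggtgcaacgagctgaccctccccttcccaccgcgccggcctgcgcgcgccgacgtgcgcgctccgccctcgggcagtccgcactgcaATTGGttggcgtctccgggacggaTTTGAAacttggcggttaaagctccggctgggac
The TTTGAA element lies 23, 24 and 29 bases before the start in KIF11, CKS2 and KIF4A, and the nearest CCAAT lies 49, 48 and 54 bases before it. KIF11 fell by 1.35 (SE 0.29, adjusted p = 0.00195), CKS2 by 0.88 (SE 0.21, adjusted p = 0.00416) and KIF4A by 1.35 (SE 0.33, adjusted p = 0.00512), and in none of the 3 did a 24 h tumor reach the lowest vehicle tumor.

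Regulators of the G1 phase and of cell death moved one by one. Of 17 G1 cyclins, CDKs and CDK inhibitors, 6 fell and 1 rose; 2 fell without vehicle tumor 1, 3 without vehicle tumor 2 and 3 without 24 h tumor 4, and none rose without vehicle tumor 1 or vehicle tumor 3. RBL1, the retinoblastoma-like protein p107, fell by 1.3 (SE 0.23, adjusted p = 2.97e-04). Of 14 BCL2-family genes, 2 rose and 2 fell, close to the shares over all genes (13.7% and 13.8%), and 4 fell without 24 h tumor 3. BMF, a BH3-only protein that promotes apoptosis, stood at 0.977, 1.16, 3.19 and 2.2 CPM in vehicle and 6.31, 9.91, 4.09 and 7.98 CPM at 24 h, a log2 fold change of 1.92 (SE 0.34, adjusted p = 3.59e-04). BBC3, the BH3-only protein PUMA, rose by 0.87, while PMAIP1, the BH3-only protein NOXA, fell by 1.34 and the survival gene BCL2L1 by 0.66. MCL1, another survival gene, had a log2 fold change of -0.35 (SE 0.17, adjusted p = 0.124). Of 24 p53 targets, 3 rose and 6 fell, or 3 without vehicle tumor 1.

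Ribosome genes were lower as a block. Of 79 cytoplasmic ribosomal protein genes, 71 fell and none rose, with a median log2 fold change of -0.73; 73 fell without 24 h tumor 1 and 63 without 24 h tumors 1 and 4, and in 69 of the 79 each of the 4 values at 24 h was under the lowest vehicle value, as in 13.5% of all genes (in 11.8% each was above the highest). RPL3, a protein of the large subunit, stood at 1080, 1070, 1180 and 1080 CPM in vehicle and 556, 552, 620 and 526 CPM at 24 h, a log2 fold change of -0.97 (SE 0.11, adjusted p = 4.53e-06). The small-subunit gene RPS12 fell by 1.26 (SE 0.15, adjusted p = 6.20e-06). These are short transcripts, and 78 of the 79 lie in the fifth of all genes with the shortest length, where the median log2 fold change was 0.22. Many ribosomal protein genes have processed pseudogenes that can share their reads. Of 36 ribosome biogenesis genes linked to MYC, 20 fell and none rose (median -0.55); 24 fell without 24 h tumor 1 and 8 without 24 h tumors 1 and 4. NPM1, the nucleolar phosphoprotein, stood at 889, 846, 728 and 776 CPM in vehicle and 284, 376, 448 and 324 CPM at 24 h, a log2 fold change of -1.18 (SE 0.15, adjusted p = 8.93e-06), and the nucleolar GTPase GNL3 fell by 0.85 (SE 0.13, adjusted p = 9.68e-05). MYC itself, named after its values were seen, stood at 78.3, 83.2, 63.9 and 69.4 CPM in vehicle and 35.6, 22.7, 53.2 and 23.7 CPM at 24 h, a log2 fold change of -1.13 (SE 0.25, adjusted p = 0.00215).

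Other genes of protein production and folding were lower as well. Of 20 cytoplasmic aminoacyl-tRNA synthetases, which charge tRNAs with amino acids, 14 fell and none rose (median -0.55, 13 without 24 h tumor 1). Of 26 genes of the ATF4 and integrated stress response list, 11 fell, or 9 without 24 h tumor 1, and 1 rose, or none without vehicle tumor 3. MTHFD2, the mitochondrial folate enzyme, fell by 1.24 (SE 0.17, adjusted p = 2.20e-05), and SLC7A11, the cystine importer, by 1.35 (SE 0.23, adjusted p = 2.45e-04). Of 21 heat shock and chaperonin genes, 13 fell and 1 rose (median -0.59), with 7 falls without vehicle tumor 2, 8 without 24 h tumor 1 and 7 without 24 h tumor 2. HSPH1, a co-chaperone of HSP70, fell by 1.16 (SE 0.16, adjusted p = 2.06e-05) and the mitochondrial chaperonin HSPD1 by 1.05 (SE 0.15, adjusted p = 4.41e-05). The gene that rose was HSPB1, the small heat shock protein HSP27, from 264, 362, 359 and 272 CPM to 803, 593, 755 and 761 CPM, a log2 fold change of 1.21 (SE 0.22, adjusted p = 3.76e-04).

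The mRNAs of many glycolysis genes were lower in the 24 h tumors. Of 21 glycolysis genes, 11 fell and none rose, with a median log2 fold change of -0.70. Without 24 h tumor 1, 9 fell, and without 24 h tumors 1 and 4, 5 fell. ENO1, the enolase, stood at 1480, 1390, 1240 and 1370 CPM in vehicle and 537, 680, 806 and 575 CPM at 24 h, a log2 fold change of -1.08 (SE 0.13, adjusted p = 9.06e-06). The pyruvate kinase PKM fell by 1.11 (SE 0.16, adjusted p = 3.64e-05), the triose isomerase TPI1 by 0.89 and GAPDH, often used as a reference gene, by 0.70 (SE 0.13, adjusted p = 5.08e-04). Tumor 1 was the lowest 24 h tumor for ENO1, PKM and TPI1, and the mean log2 CPM of the list was 6.92 in it against 7.34 to 7.83 in the other 3 and 7.94 to 8.37 in vehicle.

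The hypoxia response list was less even. Of its 22 genes, 7 fell and 1 rose (median -0.64). The number that fell was 3 without vehicle tumor 3 or 24 h tumor 1, 4 without vehicle tumor 4, 24 h tumor 3 or 24 h tumor 4, and 13 without 24 h tumor 2, so the list as a whole rests on single tumors. The mitophagy receptor BNIP3L, at 170, 245, 531 and 251 CPM in vehicle and 64.7, 174, 83.9 and 119 CPM at 24 h, had overlapping ranges and a log2 fold change of -1.44 (SE 0.32, adjusted p = 0.00217). VEGFA, the vascular growth factor, was the 1 gene that rose, by 0.92 (SE 0.28, adjusted p = 0.0175), and its call was lost without vehicle tumor 1, vehicle tumor 2 or 24 h tumor 1 (adjusted p of 0.0562, 0.0582 and 0.0563).

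Cholesterol synthesis genes were lower in part. Of 25 cholesterol synthesis genes, 13 fell and none rose (median -0.58), with 5 falls without vehicle tumor 1, 7 without vehicle tumor 2, 7 without vehicle tumor 4, 8 without 24 h tumor 1, 8 without 24 h tumor 2 and 5 without 24 h tumor 4. Of 17 fatty acid synthesis genes, 6 fell and 2 rose, with 3 falls without vehicle tumor 1. The fatty acid desaturase SCD fell by 1.36 (SE 0.31, adjusted p = 0.00327), while ACACB, the mitochondrial acetyl-CoA carboxylase that restrains fatty acid oxidation, rose by 1.08 (SE 0.17, adjusted p = 8.07e-05). MLXIPL, the glucose-sensing factor ChREBP, rose from 6.93, 8.04, 7.12 and 11.6 CPM to 136, 105, 35.8 and 91.9 CPM, a log2 fold change of 3.45 (SE 0.46, adjusted p = 2.92e-05).

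Mitochondrially encoded mRNAs were higher, and their size rested on 24 h tumor 1. Of 13 such genes, 12 rose and none fell (median 0.99), but 3 rose without 24 h tumor 1 and none without 24 h tumors 1 and 4. MT-CO1, a subunit of cytochrome oxidase, stood at 28800, 26200, 20100 and 28200 CPM in vehicle and 105000, 42200, 39200 and 38800 CPM at 24 h, a log2 fold change of 1.12 (SE 0.28, adjusted p = 0.00477) that became 0.62 (adjusted p = 0.0293) without tumor 1. All 4 treated tumors of MT-CO1 lay above vehicle. MT-CO2, another oxidase subunit, did not pass, with 0.70 (SE 0.27, adjusted p = 0.0586) and 0.14 without 24 h tumor 1. Of 40 nuclear genes for the respiratory chain, none rose and 5 fell, or 3 without vehicle tumor 1, 3 without 24 h tumor 1 and 9 without 24 h tumor 3.

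Part of the enterocyte genes were higher at 24 h. Of 22 tested enterocyte and brush border genes, 11 rose and 1 fell, with a median log2 fold change of 0.81, and the same numbers held without 24 h tumor 1. Among those that did not pass, looked up after their values were seen, were VIL1 (0.22, adjusted p = 0.182), USH1C (-0.05, adjusted p = 0.712) and DPP4 (-0.27, adjusted p = 0.513). The list was written with earlier results of these data known. ATP10B, a phospholipid flippase (chromosome 5, 160563120 to 160852214), is on this list and had the largest rise among well-expressed genes, from 0.537, 1.98, 2.54 and 1.14 CPM to 36.2, 166, 50.4 and 49.6 CPM, a log2 fold change of 5.60 (SE 1.0, adjusted p = 5.21e-04). The next largest rises were in genes outside the list. TM4SF20, a tetraspan membrane protein, stood at 11.6, 14.2, 12.8 and 11.3 CPM in vehicle and 62.3, 176, 186 and 162 CPM at 24 h, a log2 fold change of 3.56 (SE 0.34, adjusted p = 1.00e-06). The water and glycerol channel AQP7 rose by 3.18 (SE 0.31, adjusted p = 1.09e-06) and PDZK1, a scaffold of brush border transporters, by 2.99 (SE 0.27, adjusted p = 3.25e-07). For each of these 4 genes every 24 h tumor lay above every vehicle tumor.

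Within the brush border list itself, CDHR2, a cadherin that links microvilli, rose from 226, 260, 290 and 254 CPM to 466, 449, 485 and 604 CPM, a log2 fold change of 0.96 (SE 0.14, adjusted p = 5.18e-05). BTNL3, a butyrophilin-like protein of gut epithelium, rose by 4.52 and PHGR1 by 5.74, both from means under 1.5 CPM; BTNL3 can share reads with its near-identical neighbor BTNL8. EZR, the microvillar linker ezrin, was the gene that fell, by 0.69 (SE 0.16, adjusted p = 0.00317), and is named after its value was seen; no gene of the list fell without 24 h tumors 1 and 4. Of 16 trefoil and mucin genes, 5 rose and 1 fell. The membrane mucins MUC13, MUC1 and MUC3A rose by 2.24, 1.93 and 1.67. MUC13 stood at 260, 262, 465 and 366 CPM in vehicle and at 575, 2250, 1700 and 1890 CPM at 24 h, where tumor 1 was the lowest. The secreted trefoil factor TFF1 was the 1 that fell, at -1.41 (SE 0.49, adjusted p = 0.0369), and its call was lost without vehicle tumor 3, vehicle tumor 4, 24 h tumor 1 or 24 h tumor 3, with adjusted p of 0.176, 0.0641, 0.102 and 0.0883.

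**Figure D4:**
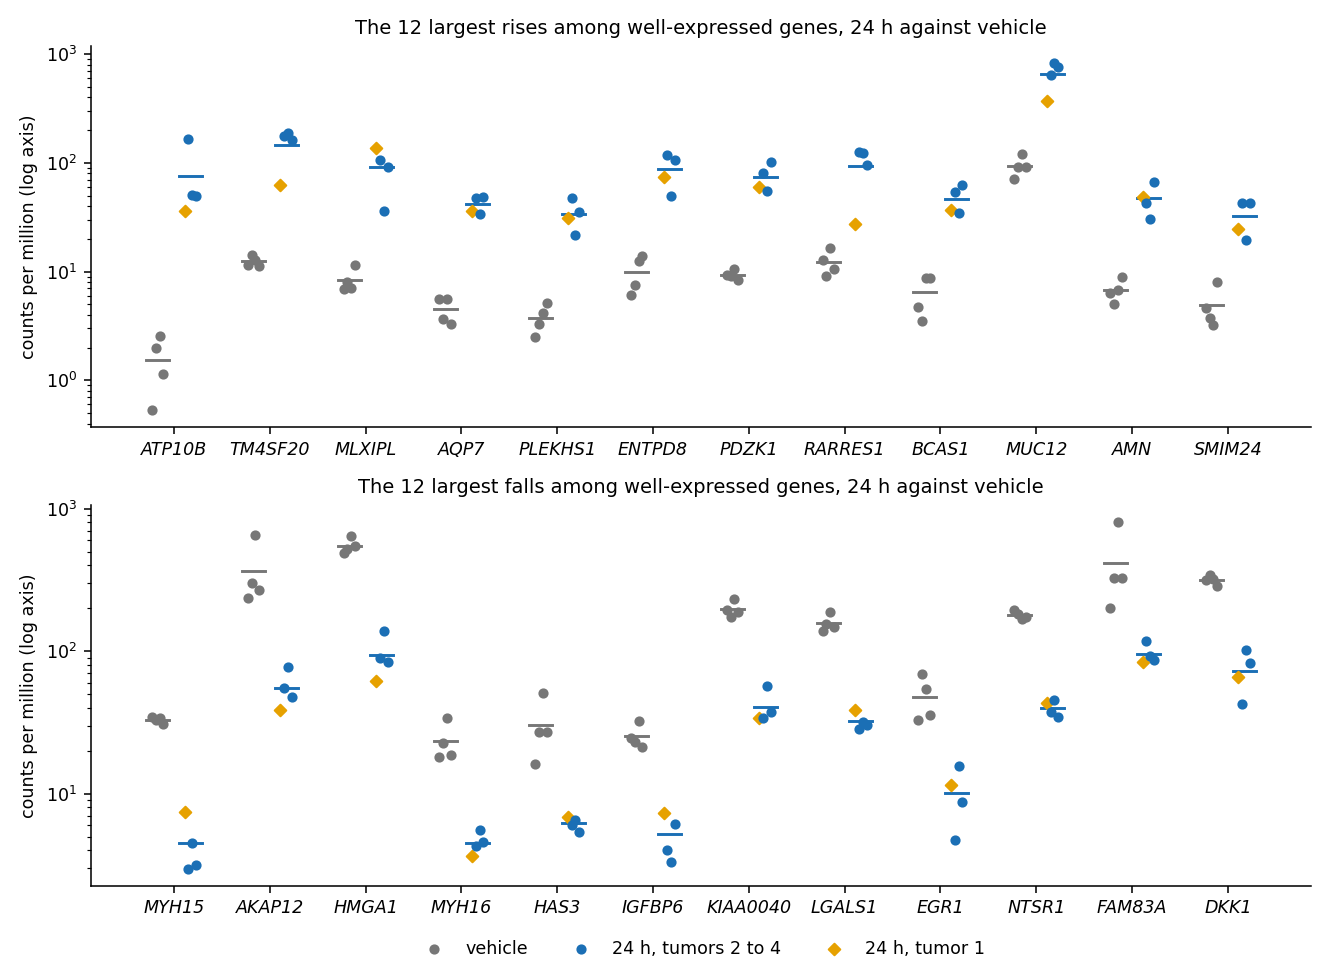
CPM (log axis) in each vehicle tumor (grey) and each 24 h tumor (blue circles, tumor 1 as an orange diamond) for the 12 genes with the largest rises (top) and the 12 with the largest falls (bottom) among well-expressed genes whose groups did not overlap; bars are group means. ATP10B heads the rises with a log2 fold change of 5.60, from a vehicle mean of only 1.55 CPM, and MYH15 the falls with -2.89. Tumor 1 is the lowest treated tumor for TM4SF20, RARRES1 and MUC12.

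The largest falls were in genes of varied function. MYH15, a myosin heavy chain gene, fell by 2.89, the kinase scaffold AKAP12 by 2.73 and HMGA1, a chromatin protein high in embryonic and tumor cells, by 2.56. HMGA1 stood at 490, 518, 641 and 546 CPM in vehicle and 61.5, 89.7, 138 and 84.4 CPM at 24 h (SE 0.31, adjusted p = 8.93e-06). LGALS1, the secreted lectin galectin-1, fell by 2.28, the neurotensin receptor NTSR1 by 2.16 and the WNT antagonist DKK1 by 2.12. From the list of epithelial and mesenchymal state, VIM, the mesenchymal filament vimentin, stood at 2860, 3160, 2980 and 2610 CPM in vehicle and 1080, 1130, 1160 and 1120 CPM at 24 h, a log2 fold change of -1.37 (SE 0.15, adjusted p = 3.22e-06). Fibroblasts also express VIM, and their summed markers, read at human gene IDs, were 1370 to 2780 CPM in vehicle and 1570 to 4590 CPM at 24 h. The repressor of epithelial genes SNAI2 fell by 1.79 (SE 0.24, adjusted p = 2.05e-05).

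Of 28 genes of epithelial and mesenchymal state, 12 rose and 8 fell, the same numbers as without 24 h tumor 1. CDH1, the epithelial cadherin, stood at 152, 169, 167 and 155 CPM in vehicle and at 137, 367, 318 and 286 CPM at 24 h, a log2 fold change of 0.79 (SE 0.19, adjusted p = 0.00460) that was 1.0 without tumor 1, the only 24 h tumor below the vehicle range. EPCAM rose by 0.63 (SE 0.13, adjusted p = 0.00135) with no overlap. The laminin subunit LAMA3, part of the basement membrane, fell by 1.27. Of 12 integrin subunits, 7 fell and 1 rose (median -0.96), and 5 fell without 24 h tumor 1. ITGB1, the common beta subunit, stood at 2230, 2380, 2540 and 1760 CPM in vehicle and 611, 857, 1230 and 702 CPM at 24 h, a log2 fold change of -1.39 (SE 0.22, adjusted p = 1.05e-04). ITGA2, a collagen receptor subunit, fell by 1.81 (SE 0.35, adjusted p = 8.61e-04), and ITGB6, the epithelial partner of the alpha-v chain, was the 1 that rose, by 0.90 (SE 0.19, adjusted p = 0.00129).

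Of 21 matrix protease and plasminogen genes, 9 fell, 8 without 24 h tumor 1. The collagenase MMP1 stood at 7.23, 16.3, 42.8 and 10.9 CPM in vehicle and at 0, 0.192, 0.319 and 0.0570 CPM at 24 h, and the stromelysin MMP10 at 0.342, 2.61, 3.33 and 0.988 CPM in vehicle and 0 in all 4 treated tumors. With so few counts at 24 h no fold change is given for either. PLAU, the urokinase, fell by 1.14 (SE 0.23, adjusted p = 0.00106). The 2 genes of this list that rose, MMP7 and TIMP3, named after their values were seen, passed at adjusted p of 0.0475 and 0.0485. MMP7 kept its call in 2 of the 8 fits without a tumor and TIMP3 in 1, and none of the list rose without vehicle tumors 2, 3 or 4 or 24 h tumors 3 or 4 (1 without vehicle tumor 1 and 24 h tumors 1 or 2).

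Chemokine genes and other targets of NF-kB were higher. Of 20 tested cytokine and chemokine genes, 10 rose and 2 fell (median 0.69), 9 and 2 without 24 h tumor 1. CXCL3, a neutrophil-attracting chemokine, stood at 8.55, 9.63, 8.16 and 7.31 CPM in vehicle and 39.9, 36.8, 47.0 and 32.7 CPM at 24 h, a log2 fold change of 2.22 (SE 0.22, adjusted p = 1.09e-06). CXCL2, of the same cluster on chromosome 4, rose by 1.95 (SE 0.25, adjusted p = 1.39e-05), the mucosal chemokine CCL28 by 2.64 (SE 0.32, adjusted p = 1.04e-05) and CCL20 by 1.3 (SE 0.21, adjusted p = 1.19e-04). CXCL8, the neutrophil chemokine IL-8 of the same chromosome 4 cluster, moved the other way; looked up after its value was seen, it stood at 11.5, 13.6, 16.2 and 8.54 CPM in vehicle and 2.92, 6.49, 9.51 and 4.73 CPM at 24 h, a log2 fold change of -1.07 (SE 0.30, adjusted p = 0.0110) with overlapping ranges.

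Of 18 NF-kB targets, some of them on the chemokine list too, 10 rose and 1 fell (median 0.59), 9 and 1 without 24 h tumor 1, and 2 fell without vehicle tumor 1. TNFAIP2, a TNF-induced protein, stood at 148, 107, 156 and 174 CPM in vehicle and 612, 597, 382 and 521 CPM at 24 h, a log2 fold change of 1.85 (SE 0.16, adjusted p = 1.96e-07). BCL3, an atypical IkB protein, rose by 0.84. The feedback genes NFKBIA and TNFAIP3, which NF-kB induces to limit itself, had log2 fold changes of 0.02 (SE 0.14, adjusted p = 0.924) and 0.07 (SE 0.15, adjusted p = 0.765), and were looked up after their values were seen. Myeloid cells also make chemokines. The myeloid markers, also read at human gene IDs, summed to 485 to 722 CPM in vehicle and 241 to 731 CPM at 24 h. Most of that was LYZ, the lysozyme gene, at 340 to 584 and 192 to 594 CPM. LYZ is also on the list of classical carcinoma genes. The leukocyte marker PTPRC was at 1.69 to 12.2 CPM in vehicle and 1.3 to 7.24 CPM at 24 h.

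Antigen presentation genes were higher at 24 h. Of 19 genes of MHC class I and peptide loading, 10 rose and none fell (median 0.72), and 13 rose without 24 h tumor 1. For 6 of the 19 all 4 treated tumors lay above vehicle, as in 11.8% of all genes. NLRC5, the transactivator of MHC class I genes, rose from 13.8, 13, 8.91 and 15.9 CPM to 28.9, 37.8, 34.0 and 34.2 CPM, a log2 fold change of 1.39 (SE 0.24, adjusted p = 2.77e-04). HLA-B, a class I heavy chain whose reads can be shared with other HLA genes, stood at 102, 86.6, 125 and 152 CPM in vehicle and 110, 391, 288 and 348 CPM at 24 h, a log2 fold change of 1.29 (SE 0.29, adjusted p = 0.00221). For HLA-B tumor 1 alone lay within the vehicle range. B2M, the class I light chain, stood at 830, 732, 1180 and 917 CPM in vehicle and 377, 1580, 1550 and 1410 CPM at 24 h, and its log2 fold change of 0.43 (SE 0.27, adjusted p = 0.249) became 0.72 (adjusted p = 0.00223) without tumor 1. Of 38 interferon-stimulated genes, 4 rose and 2 fell (1 without 24 h tumor 1, vehicle tumor 1 or vehicle tumor 4), shares below those of all genes.

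Lists near or below the background included 37 lysosome and autophagy genes, of which 4 rose and 1 fell, with 7 rises without 24 h tumor 1 and 2 falls without 24 h tumor 3. CTSD, the protease cathepsin D, nevertheless rose from 184, 222, 219 and 193 CPM to 239, 722, 595 and 605 CPM, a log2 fold change of 1.40 (SE 0.24, adjusted p = 2.83e-04). Of 22 clock genes, which follow the hour of collection, 1 rose and none fell, with 3 rises and 1 fall without 24 h tumor 3 and 1 fall without 24 h tumor 4. The list of NRF2 antioxidant genes had more falls than the background. Of its 23 genes, 6 fell and 3 rose, with 1 rise without vehicle tumor 2 or vehicle tumor 3. SLC7A11, given above, was among those that fell. HMOX1, the heme oxygenase of the list, went the other way, from 7.52, 7.07, 8.66 and 7.16 CPM to 13.1, 22.6, 28.7 and 21.4 CPM. Its log2 fold change was 1.5 (SE 0.23, adjusted p = 9.48e-05).

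The 24 h tumors were then set against the 8 h tumors, a contrast that shares the 24 h tumors with the one above. Here 967 genes rose (5.30%) and 289 fell (1.58%), and the split was 1125 to 637 by DESeq2 and 762 to 97 on log2(TPM + 1). Without 24 h tumor 1, 1993 rose (10.7%) and 680 fell (3.64%). Without 24 h tumor 3, 8 h tumor 2 or 8 h tumor 4 in turn, 519, 621 and 519 rose and 129, 144 and 110 fell. MAPK genes led the rises: of the 10 output genes 9 rose and none fell, the same in every fit that left out a tumor. On the list of ERK feedback inhibitors, 10 of 17 genes rose. DUSP6 stood at 12.9, 5.88, 5.29 and 4.58 CPM at 8 h, so its 24 h values of 83.8 to 120 CPM were higher by a log2 fold change of 3.88 (SE 0.35, adjusted p = 2.95e-07). SPRY4 rose by 4.42, DUSP4 by 3.75 and ETV4 by 2.85 from 8 to 24 h.

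The mean log2 CPM of the 10 output genes was 6.52 ± 0.04 in vehicle, 2.74 ± 0.52 at 8 h, 5.56 ± 0.23 at 24 h and 6.15 ± 0.18 at 48 h (SD, n = 4 each). Ribosome biogenesis genes also rose from 8 to 24 h, 28 of 36 with none falling (median 0.81, 18 without 24 h tumor 3), whereas of the 40 G1/S and the 40 G2/M genes none passed in either direction, with medians of -0.34 and 0.10; by direction, at most 2 genes of the G1/S list and 1 of the G2/M list passed on leaving out a tumor. Among cytokines, 8 of 20 rose and none fell, and CCL20 rose by 1.03 (SE 0.21, adjusted p = 0.00300). CXCL5 and IL18, named after their values were seen, rose from means of 224 and 104 CPM at 8 h to 714 and 222 CPM at 24 h (adjusted p of 0.00428 and 4.77e-05). KRT16, a stress keratin, fell by 1.87 (SE 0.40, adjusted p = 0.00645), from 145, 351, 143 and 358 CPM to 45.3, 68.0, 68.2 and 90.9 CPM, and the clock output gene DBP fell by 1.49 (SE 0.28, adjusted p = 0.00136).

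Between 24 and 48 h, again a contrast that shares the 24 h tumors, 451 genes rose (2.47%) and 291 fell (1.60%). These counts moved with single tumors: 214 (1.14%) and 159 (0.851%) without 24 h tumor 1, 750 and 612 without 24 h tumor 3, 208 and 141 without 24 h tumor 4, and 268 and 156, 294 and 179, and 178 and 120 without 48 h tumors 1, 2 and 3. Glycolysis genes led the rises, 11 of 21 with none falling (median 0.84, 9 without 24 h tumor 1). ENO1 stood at 1140, 1060, 1210 and 1350 CPM at 48 h, above all 24 h tumors, a log2 fold change of 0.87 (SE 0.13, adjusted p = 7.91e-04). The glucose transporter SLC2A1 and the lactate dehydrogenase LDHA, both named after their values were seen, rose from means of 366 and 1620 CPM at 24 h to 1390 and 3560 CPM at 48 h, with log2 fold changes of 1.93 (adjusted p = 0.00136) and 1.14 (adjusted p = 0.00165). SNAI2 rose by 1.66 (SE 0.24, adjusted p = 5.82e-04), from 9.86, 11.2, 12.3 and 14.4 CPM to 36.8, 36.5, 40.2 and 37.6 CPM, values near those of vehicle, and AKAP12 and AXL rose by 2.30 and 1.35.

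Some chemokine genes were lower again at 48 h. The mean log2 CPM of the cytokine and chemokine list was 2.97 (SD 0.12) in vehicle, 3.49 (SD 0.19) at 24 h and 3.29 (SD 0.16) at 48 h. Of the 20 cytokine genes 4 fell and none rose, and 1 rose without 24 h tumor 3, and CXCL3 fell by 1.52 (SE 0.22, adjusted p = 5.82e-04) to 9.27, 13.7, 15.5 and 16.3 CPM and CXCL2 fell by 1.63 (SE 0.25, adjusted p = 7.91e-04). TNFAIP2 fell by 1.13 (SE 0.16, adjusted p = 5.77e-04), and of the 18 NF-kB targets 3 fell, or 5 without 24 h tumor 1. TM4SF20 and AQP7, high at 24 h, had log2 fold changes of -1.63 and -1.67 and passed. ATP10B, MUC13 and CDHR2 had log2 fold changes of -0.44 (SE 0.79), -0.33 (SE 0.33) and -0.14 (SE 0.14) from 24 to 48 h (adjusted p of 0.779, 0.593 and 0.593), and none of the 22 brush border genes fell while 1 rose, or 2 without 24 h tumor 3. No G1/S gene passed between 24 and 48 h in either direction, also in each fit that left out a tumor (median 0.15). Of the G2/M genes 1 fell, or 2 without 48 h tumor 3. The G2/M list nevertheless had a median of -0.64, or -0.69 without 24 h tumor 1. Its mean log2 CPM was 4.26 (SD 0.71) at 8 h, 4.46 (SD 0.35) at 24 h and 3.78 (SD 0.60) at 48 h.

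**Figure D5:**
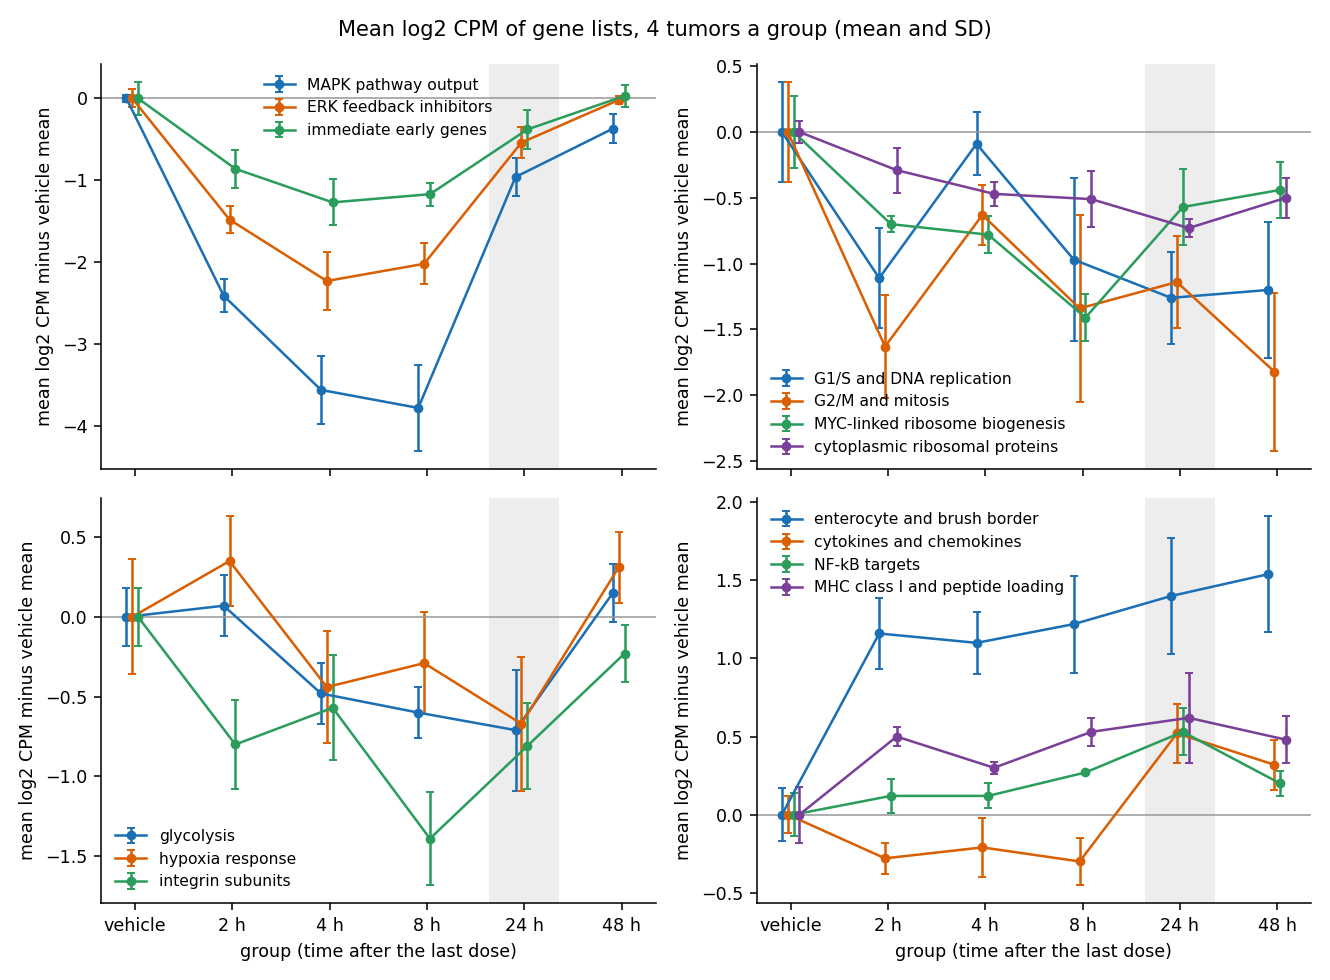
Mean log2 CPM over the tested genes of each list, as the difference from the vehicle mean, for vehicle tumors and for treated tumors at 2, 4, 8, 24 and 48 h (points are means and bars SD over 4 tumors; the 24 h group is shaded). At 24 h MAPK output has returned most of the way from its 8 h level, cell cycle lists remain low, and chemokine and NF-kB lists are at their highest mean. The glycolysis list has its lowest mean at 24 h, a log2 CPM of 7.41 (SD 0.38) against 7.52 (SD 0.16) at 8 h. That mean rests on 24 h tumor 1, at 6.92, while the other 24 h tumors lie at 7.34 to 7.83.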

How the data were processed

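RNA from 24 tumors in 6 groups of 4 separate animals was sequenced as paired reads of 150 bases, and 8 tumors made the comparison described. The authors deposited estimated counts and TPM per gene, with Salmon 0.14.1, bcl2fastq 2.17, FastQC 0.12.1 and GRCh38.p13 per the submitters' processing notes. Neither the strand setting nor the annotation release is stated in the labels, and mouse reads are not mentioned there, so antisense partners, pseudogenes and near-identical genes (HLA genes, keratins, BTNL3 and BTNL8) can share reads. Symbols and coordinates came from GENCODE release 29 by gene ID. Groups were read from sample titles, because the treated samples carry a time label worded for vehicle.

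Estimated counts were rounded, and filterByExpr kept 18242 genes with 99.9% of the counts. TMM scaling and edgeR's robust quasi-likelihood test (edgeR 4.0.16, R 4.3.3) were applied in 1 fit of all 24 tumors, so all groups share the estimate of spread, with Benjamini-Hochberg adjustment over all genes and a threshold of 0.05. CPM use TMM-scaled library sizes, and log2 CPM a prior count of 2. Alternatives used limma 3.58.1, DESeq2 1.42.0 and other filters, scalings and tumors. The procedure was checked on simulated data.

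Genes were named by rule: the 10 MAPK output genes; the 12 largest rises and 12 largest falls with mean log2 CPM of at least 3, no overlap and a call also without 24 h tumor 1; from each list up to 4 called genes, by smallest adjusted p, plus its most expressed gene that did not pass; and the 5 largest each way in the other contrasts. Others are said to be chosen after their values were seen. Printed promoters had a match, 1 start and the smallest adjusted p among calls held without each of the 8 tumors. The comparison and the lists were chosen with earlier results of these data known. P-values cover the spread between these animals. Some genes are not reported here.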

Additional observations from a re-analysis of the deposited data

Results flagged for a closer look

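In groups of 4, a tumor was noted where its gap to the nearest of the others took up more of the group's range than Dixon's 95% limit. Chance gives about 1 such group in 20, and 5 were found among 82 groups examined. The share of mitochondrially encoded mRNA in 24 h tumor 1 was 27.0%, against 10.3% to 12.5% in the other 24 h tumors. TM4SF20, the tetraspan gene that rose at 24 h, had a log2 CPM of 5.96 in the same tumor, against 7.34 to 7.54 in the others, and all 4 lay above vehicle. Summed muscle, fat and red cell markers were 3570 CPM in 24 h tumor 4, against 30.9 to 65.6 CPM, and 477 CPM in vehicle tumor 2, against 34.3 to 38.3 CPM. Summed endothelial markers were 33.7 CPM in vehicle tumor 2, against 23.1 to 24.2 CPM in the other vehicle tumors. The part of these tumors' differences in the results was not tested beyond leaving each tumor out.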

How the results depend on the processing

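Against vehicle, the count of 5011 changed genes stayed within 1.5 times under DESeq2, limma-voom, RLE scaling, other filters, TPM values, a fit of the 8 tumors alone and removal of mitochondrially encoded genes (3429 to 5697), and ran from 3588 to 5916 on leaving out 1 tumor. It was 1996 without 24 h tumors 1 and 4 (an alternative chosen after seeing the data), 2648 at an adjusted p under 0.01, and 1719 with a fold change of at least 2. From 8 to 24 h the count of 1256 became 355 in a fit of these groups alone, 2463 without 24 h tumors 1 and 4, and 629 to 2673 on leaving out 1 tumor. From 24 to 48 h the count of 742 became 1524 by DESeq2, 210 and 179 on log2(TPM + 1) and log2(TPM + 0.1), 148 in a fit of these groups alone, 82 without 24 h tumors 1 and 4, and 298 to 1362 on leaving out 1 tumor. The cause of these moves was not tested; the fits of 2 groups and without tumors hold fewer samples.

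None of the 234 named genes reversed. Of the 182 called, 17 lost the call on TPM values, 42 without 24 h tumors 1 and 4, and 3 to 9 on leaving out 1 tumor. Many of them were chosen for a small adjusted p or for a call also without 24 h tumor 1. Their calls were thus more likely to hold than those of other genes. Of all 5011 calls, 57.5% held in all 8 fits that left out 1 tumor. With the replicate block the counts were 4683, 1118 and 646, and TFF1 and PLIN1 lost their calls. The numbers showed no pairing of 24 h with vehicle tumors: the 4 same-numbered pairs correlated at -0.33 to 0.05 (mean -0.11), and none was the highest for its number. Over all groups, 18 of 60 same-numbered pairs correlated above 0.1 and 19 were the highest for their number. Whether tumors of 1 number share a processing step was not tested. Depth of 13.87 to 20.58 M counts limits genes near 0 such as MMP10.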
